A study of Mus musculus with 3 samples.

Results

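The genes that make, sense and end the phospholipase C signal, together with the channels and pumps of the calcium stores, were described in mouse hippocampus. They were chosen by a rule on their symbols, and the choice was made with earlier results of these data known. The rule took phospholipase C (Plcb, Plcd, Plce, Plcg, Plch and Plcz genes), protein kinase C (Prkc genes) and diacylglycerol kinase (Dgk genes). It also took IP3 receptors (Itpr), ryanodine receptors (Ryr), Stim store sensors, Orai channels and calcium pumps of the Atp2a, Atp2b and Atp2c families. This rule found 54 genes among the 39377 genes of the table, of which 53 are described. Whole hippocampus, a mixture of cell types, was taken at postnatal day 14 from C57BL/6 mice of wild-type genotype, and its total RNA was sequenced from both ends (150 bases each) on a NovaSeq instrument. The samples formed 1 group of 3 libraries, called libraries 1, 2 and 3, with no treatment or other genotype to set them against. No label ties a library to an animal, and every p-value therefore measures the spread between 3 samples that may be technical repeats. Levels are in FPKM (fragments per kilobase of transcript, scaled to the number of mapped fragments), and ± gives the SD over the libraries (n = 3).

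Phospholipase C enzymes cut the membrane lipid PIP2 into IP3, which opens IP3 receptor channels of the endoplasmic reticulum, and diacylglycerol, which stays in the membrane and activates protein kinase C. Diacylglycerol kinases end the lipid signal by converting diacylglycerol to phosphatidic acid. Store calcium is sensed by Stim proteins, which open Orai channels of the plasma membrane when stores run low, and SERCA, PMCA and SPCA pumps move calcium into the endoplasmic reticulum, out of the cell and into the Golgi. In hippocampal neurons the pathway runs downstream of group I glutamate receptors and muscarinic receptors and is known for its part in synaptic plasticity.

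Of the 53 genes, 44 had a mean of at least 1 FPKM and entered the tests, as did 13337 genes of the whole table. Those below it were the phospholipases Plcb2 and Plcz1, the pseudogene Prkcz2, Dgkk, the antisense noncoding gene Dgkeos, Itpr3, Ryr1, Atp2a1 and Atp2c2. Low FPKM values rise in steps of 1 fragment, and from these steps the depth was estimated at about 3690000, 4140000 and 5990000 fragments in libraries 1, 2 and 3. A level of 3 fragments on a transcript of 2 kb would be 0.472, 0.416 and 0.286 FPKM in these libraries, which covers counting error only. The median tested gene stood at 10.52, 10.33 and 10.17 FPKM. The small noncoding RNA Bc1 was listed at 124074 and 179412 FPKM in libraries 1 and 2 and at 0 in library 3, and the summed FPKM of the columns were 743038, 820068 and 637844. The markers of hippocampal principal neurons all had a mean above 1 FPKM (12 of 12, Dsp lowest at 1.62, 0.89 and 0.75 FPKM), led by Nrgn at 1099 ± 15.8 FPKM and Slc17a7 at 452 FPKM. So did all listed markers of astrocytes (7 of 7), oligodendrocyte lineage (9 of 9), microglia (7 of 7) and choroid plexus (5 of 5), among others. Passing 1 FPKM therefore does not tell cell types apart. The 6 markers of cerebellar Purkinje and granule cells summed to 28.8, 34.15 and 25.44 FPKM, mostly Pvalb (15.01, 22.42 and 17.72 FPKM), which interneurons also express, and Car8. Pcp2 of the same list was at 5.74, 1.1 and 0 FPKM in libraries 1, 2 and 3. Skor2 was listed at 0 in every library and Gabra6 at 0.12, 0.18 and 0 FPKM. The 8 muscle markers summed to 5.31, 7.89 and 6.29 FPKM, mostly Acta1, and 4 of them (Myh2, Ckm, Myh6 and Actc1) were at 0 in every library. Of all 39377 genes, 19046 had a value above 0 in any library. Choroid plexus markers summed to 398, 1084 and 1313 FPKM in libraries 1, 2 and 3, mostly Ttr, and markers of immature neurons to 97.5, 70.2 and 59.2 FPKM.

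Several of these genes have close relatives or more than 1 start site, and a value per gene is read against that. Coding sequences were taken from 1 transcript per gene, the longest coding one. Between those of related members (206 pairs), the longest identical run was 56 bases and none reached the read length of 150 bases. That transcript held 1227 coding bases for Prkcz and 408 for Orai3, and other forms of a gene were not compared. The runs below are the longest between a pair of plasma membrane pumps and a pair of SERCA pumps, and they show how short the exactly shared stretches are. Coordinates are those of GRCm38, on the strand of the first gene.
Atp2b2 and Atp2b3, 56 bases, chr6:113789922-113789977, minus strand: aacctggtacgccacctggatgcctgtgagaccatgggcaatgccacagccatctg
Atp2a1 and Atp2a3, 53 bases, chr7:126448177-126448229, minus strand: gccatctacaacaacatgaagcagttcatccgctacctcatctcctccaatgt
Windows of 150 bases were also taken from the longest transcript of each member. None was shared between related coding members, and 41 of the 53 genes shared none with any annotated gene. Above 5% of windows, sharing was found for 6 genes: Dgkq (40.5%, with Tmem175), Plcd4 (32.4%, with Zfp142), Atp2c1 (29.9%, with Aste1), the pseudogene Prkcz2 (23.3%, with Prkcz), Atp2a1 (9.71%, with Rabep2) and Prkcz (6.79%, with Prkcz2). Prkcz and Prkcz2 lie on different chromosomes and share sequence, while the other 4 genes overlap a gene of the opposite strand. With these 4, exons of 22 of the 53 genes overlapped an exon of the opposite strand. Ryr3 shared 4.66% of windows with Aven (3.35 ± 1.12 FPKM). Plcb3 shared no window but overlapped Ppp1r14b, which stood at 80.0 ± 2.12 FPKM. Whether the counting used strand is not given, so reads in these overlaps cannot be assigned. Tmem175 was at 16.25 ± 2.42 FPKM, above Dgkq at 4.86 ± 1.05 FPKM, and Rabep2 at 3.64 ± 0.871 FPKM, above Atp2a1. Zfp142 was at 3.58 ± 1.38 FPKM, below Plcd4, and Aste1 at 2.95 ± 1.37 FPKM, far below Atp2c1.

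Protein kinase C carried the highest level of any member. Prkcb, a conventional kinase that needs both calcium and diacylglycerol (chr7:122289104-122634402), stood at 128.5, 138.16 and 167.53 FPKM. It was highest in library 3. Prkce, a kinase that responds to diacylglycerol without calcium, had 63.12, 57.59 and 65.45 FPKM, and Prkcz, an atypical kinase that needs neither, had 55.77, 63.2 and 63.67 FPKM. The lowest Prkcb library lay above every library of Prkce and Prkcz. The ranges of Prkce and Prkcz overlapped, and each was well above Prkca, the widely expressed conventional kinase, at 14.76, 13.19 and 15.27 FPKM. Prkcd (calcium-independent like Prkce, known from thalamus and immune cells) and Prkci (atypical, a cell polarity kinase) overlapped with each other, at means of 12.5 ± 1.68 and 11.04 ± 0.964 FPKM. The calcium-independent kinases Prkcq, best known from T cells, and Prkch, best known from epithelia, were at 4.77 ± 0.577 and 1.39 ± 0.0557 FPKM. The pseudogene Prkcz2 was listed at 0.19, 0 and 0.24 FPKM, about 1, 0 and 2 fragments.

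**Figure D1:**
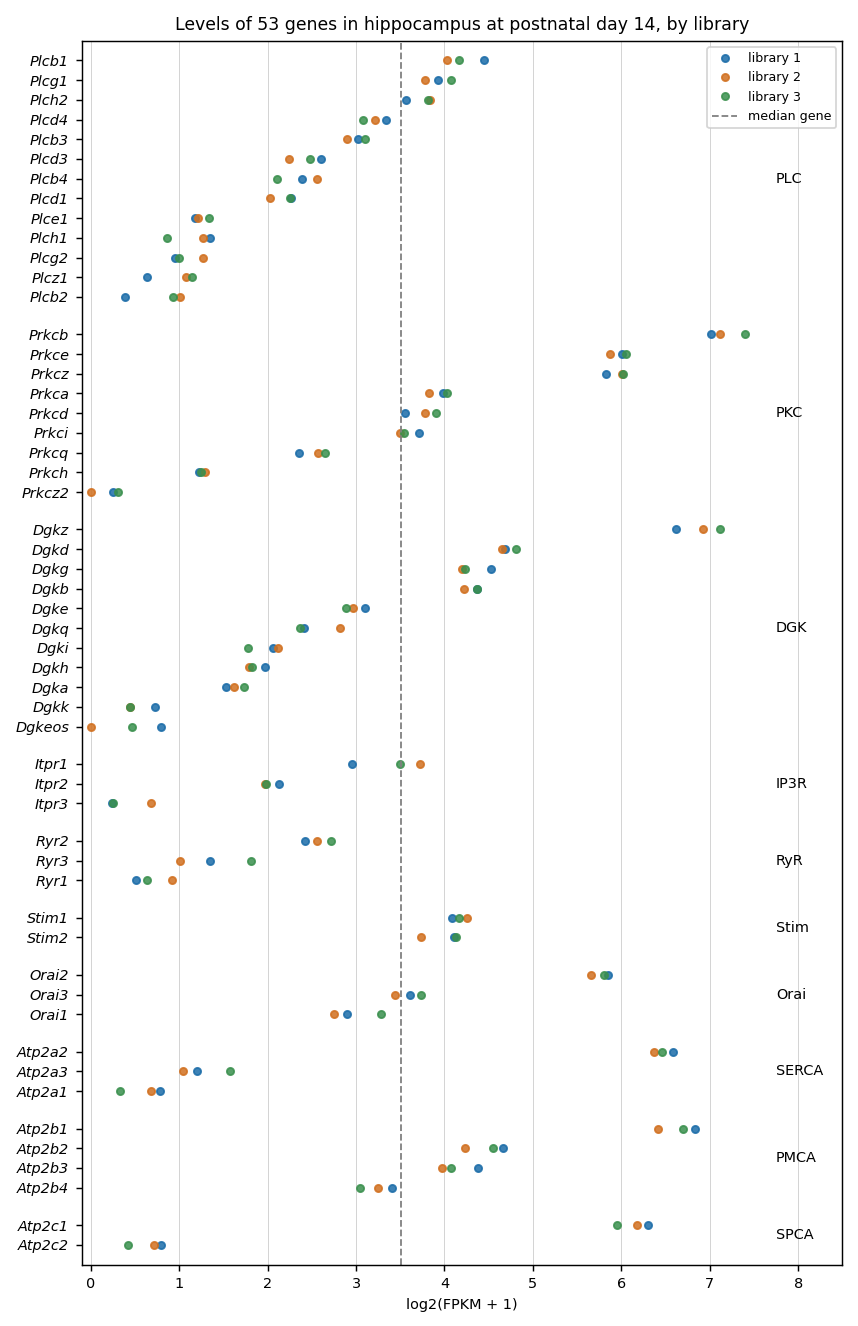
Each row is 1 of the 53 genes and each point 1 library, on a log2(FPKM + 1) axis; the dashed line is the median tested gene. Prkcb, Dgkz, Atp2b1 and Atp2a2 lie farthest to the right, and within most families 1 to 4 genes stand clear of the rest.

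Prkcb was 10.1 ± 1.19 times Prkca, with ratios of 8.71, 10.47 and 10.97 in libraries 1, 2 and 3. Within the atypical class Prkcz was 5.56 ± 0.842 times Prkci, and within the calcium-independent class Prkce was 5.03 ± 0.758 times Prkcd.

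Members of each family were tested against 1 gene of that family, chosen by its role, as the difference of log2(FPKM + 1) inside each library. A gene was called when it differed by more than 2-fold (a null of at most 1 log2 unit, limma's treat function) with a Benjamini-Hochberg adjusted p under 0.05 over all 13336 other tested genes. The reference gene's 3 values enter every difference of such a fit, which the pooled spread does not allow for. The SEs and adjusted p printed here for these comparisons therefore moderate the spread of the gene and of the reference gene separately with limma. Both spreads are added as if gene and reference gene varied independently. The spread of the differences inside libraries thus enters only the pooled fit. The pooled fit gave the same call for all 43 tested differences between members. The shares of all genes printed beside each reference gene come from the pooled fit. For Prkca that fit called 2638 genes higher and 4163 lower, and the separately moderated one 2540 and 3986. With 3 libraries, the smallest p of an exact sign-flip test is 0.25. Against Prkca, 3 of 7 kinases were higher, where 19.8% of all genes were, and 2 were lower, where 31.2% of all genes were. Prkcb was 3.24 log2 units above Prkca (SE 0.144, adjusted p = 0.000212, limma), Prkce 2.03 and Prkcz 2.01, each in 3 of 3 libraries. Prkch differed by -2.69 (SE 0.125, adjusted p = 0.000302, limma). Prkcq differed by -1.42 (adjusted p = 0.0300, limma), and this call was lost without library 1 (adjusted p = 0.106) and without library 3 (adjusted p = 0.0529), both in the pooled limma fit. Prkcd (-0.20) and Prkci (-0.36) did not pass.

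Prkcz is a gene with several annotated starts. In rat brain an internal start is known to give PKM-zeta, a form without the regulatory domain, and FPKM per gene sum over all starts. RefSeq promoter windows of GRCm38.p6, from 250 bases before to 50 bases after a start, are shown for the 3 Prkcz entries, all on the minus strand. The second start lies 15639 bases and the other one 16679 bases downstream of the first. The capitals mark TGACGTCA, the palindromic cAMP response element, which occurs in the second window and begins 7 bases before the start.
Prkcz, first start, chr4:155361379-155361678: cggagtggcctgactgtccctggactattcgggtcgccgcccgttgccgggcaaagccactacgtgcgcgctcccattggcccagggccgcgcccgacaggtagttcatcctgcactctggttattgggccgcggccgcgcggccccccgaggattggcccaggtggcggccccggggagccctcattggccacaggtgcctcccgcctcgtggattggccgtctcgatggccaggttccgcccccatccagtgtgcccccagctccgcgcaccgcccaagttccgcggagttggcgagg
Prkcz, second start, chr4:155345740-155346039: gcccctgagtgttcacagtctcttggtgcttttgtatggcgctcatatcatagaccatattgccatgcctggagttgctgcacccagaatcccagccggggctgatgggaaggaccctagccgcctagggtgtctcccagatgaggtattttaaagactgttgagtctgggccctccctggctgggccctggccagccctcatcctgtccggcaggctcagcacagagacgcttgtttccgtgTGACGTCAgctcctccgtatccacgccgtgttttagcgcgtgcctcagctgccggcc
Prkcz, start farthest downstream, chr4:155344700-155344999: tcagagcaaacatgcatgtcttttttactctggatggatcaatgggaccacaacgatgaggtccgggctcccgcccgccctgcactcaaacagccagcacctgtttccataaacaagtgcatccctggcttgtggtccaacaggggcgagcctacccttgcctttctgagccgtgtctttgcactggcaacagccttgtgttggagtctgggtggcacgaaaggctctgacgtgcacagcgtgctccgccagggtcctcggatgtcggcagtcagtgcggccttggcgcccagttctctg
These letters were found in 1 of the 62 promoter windows of members (1.61%) and in 1.79% of 32851 windows of all genes. The share of the 55.77 to 63.67 FPKM of Prkcz that came from each start cannot be read from a value per gene.

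Diacylglycerol kinases were dominated by 1 gene. Dgkz, a type IV kinase with a MARCKS-like region and ankyrin repeats that binds PSD-95 at synapses (chr2:91932822-91976443), had 97.48, 120.83 and 137.22 FPKM. It was lowest in library 1 and highest in library 3, and every library lay above all other kinases of the family. Dgkd, a type II kinase with a PH domain, followed at 24.76, 24.04 and 27.04 FPKM. The calcium-binding type I kinases Dgkg and Dgkb overlapped at 19.0 ± 2.64 and 19.0 ± 1.14 FPKM, whereas the type I kinase Dgka, known from T cells, was at 2.09 ± 0.221 FPKM. Dgke, which prefers diacylglycerol with an arachidonoyl chain, was at 6.93 ± 0.589 FPKM, and Dgkq, the type V kinase, at 4.86 ± 1.05 FPKM. Dgki, the other type IV kinase, was at 2.98 ± 0.480 FPKM and its range overlapped that of the type II kinase Dgkh at 2.64 ± 0.236 FPKM. Dgkk was listed at 0.65, 0.36 and 0.36 FPKM and Dgkeos, an antisense noncoding gene beside Dgke, at 0.74, 0 and 0.38 FPKM.

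Dgkz alone made up 58.5% ± 4.99 of the summed FPKM of the 10 coding kinases, and its share was 52.8%, 60.1% and 62.4% in libraries 1, 2 and 3. It was 4.68 ± 0.643 times Dgkd and 41.1 ± 13.4 times Dgki. All 8 other tested kinases were lower than Dgkz by more than 2-fold, where 82.6% of all genes were lower and 2.44% higher. The nearest, Dgkd, differed by -2.17 log2 units (SE 0.152, adjusted p = 0.000456, limma) and the farthest, Dgka, by -5.26 (SE 0.154, adjusted p = 1.42e-05, limma). Most genes of the table were lower than Dgkz, so the count says little about this family.

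**Figure D2:**
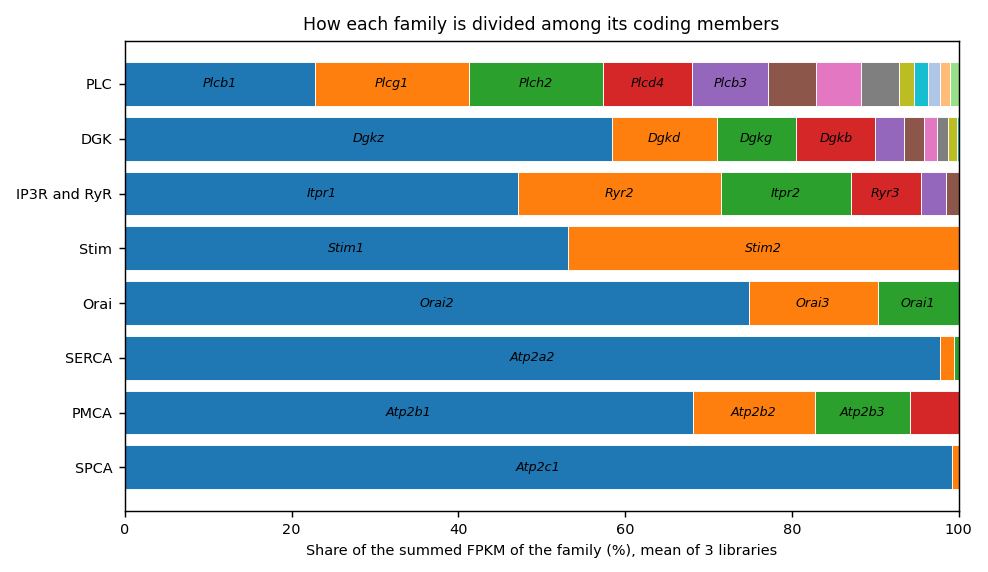
Each bar divides the summed FPKM of a family other than protein kinase C among its coding members, in percent, as the mean of 3 libraries, with the highest member on the left. Dgkz, Atp2b1, Orai2, Atp2a2 and Atp2c1 lead their families with 58.5% to 99.2%, while phospholipase C is spread over many genes, led by Plcb1 at 22.8%.

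No phospholipase C gene reached the level of the leading kinases, and no single gene held most of the family. Plcb1, the Gq-driven isoform known from forebrain (chr2:134786164-135475258), had 20.75, 15.32 and 16.92 FPKM. Plcg1, which is activated by receptor tyrosine kinases, had 14.24, 12.72 and 15.86 FPKM, and Plch2, a calcium-sensitive isoform found in neurons, 10.88, 13.25 and 13.12 FPKM. The range of Plcg1 overlapped those of both Plcb1 and Plch2, although Plcb1 was above Plcg1 in 3 of 3 libraries. Plcd4 and Plcb3 overlapped at 8.28 ± 0.835 and 7.06 ± 0.548 FPKM, followed by Plcd3 at 4.46 ± 0.676 FPKM. Plcb4, the isoform known from cerebellum and thalamus, was at 4.14 ± 0.805 FPKM and Plcd1 at 3.54 ± 0.410 FPKM. Plce1, an effector of Ras family proteins, Plch1 and Plcg2, known from immune cells including microglia, lay between 0.82 and 1.55 FPKM in all libraries. Plcb2, known from blood cells, was listed at 0.31, 1.01 and 0.91 FPKM, and Plcz1, the phospholipase of sperm, at 0.56, 1.11 and 1.22 FPKM, about 4, 9 and 15 fragments.

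By class, the beta isoforms held 38.3% ± 2.05 of the summed FPKM of phospholipase C, the delta isoforms 21.04% ± 1.30, the gamma isoforms 19.9% ± 1.48 and the eta isoforms 17.7% ± 2.13. None of 10 phospholipase C genes was higher than Plcb1, where 16.1% of all genes were, and 6 were lower, where 36.4% of all genes were. Those lower were Plcg2 at -3.14 (SE 0.155, adjusted p = 0.000374, limma), Plch1 at -3.05, Plce1 at -2.97, Plcd1 at -2.03, Plcb4 at -1.86 and Plcd3 at -1.77 log2 units. Plcb3 at -1.20, Plcd4 at -1.001, Plch2 at -0.47 and Plcg1 at -0.28 did not pass the test. Levels also differed inside the classes: Plcg1 was 13.4 ± 3.80 times Plcg2, with ratios of 15.3, 9.02 and 15.9 in libraries 1, 2 and 3, and Plch2 was 10.8 ± 4.65 times Plch1, with ratios of 7.02, 9.40 and 16.

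**Figure D3:**
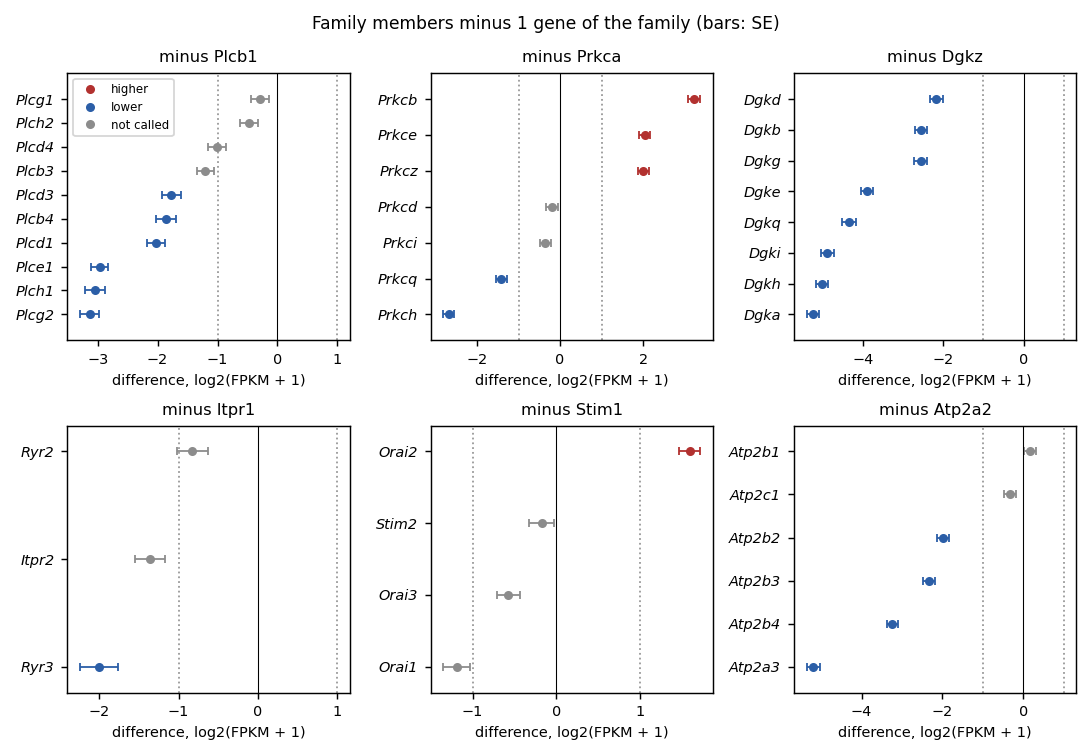
Each panel shows members minus 1 gene of their family as the mean difference of log2(FPKM + 1) over 3 libraries. SE bars treat gene and reference gene as independent. Dotted lines mark 2-fold, and red, blue and grey mean higher, lower and not called. Prkcb, Prkce and Prkcz lie right of Prkca, Orai2 lies right of Stim1, and no tested member of the other families lies more than 2-fold above its reference gene.

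No release channel of the store reached the level of the leading kinases and pumps. Itpr1, the main IP3 receptor of neurons (chr6:108213083-108551116), was listed at 6.73, 12.24 and 10.3 FPKM, about 238, 487 and 594 fragments. Library 1 was well below the other two. Ryr2, the ryanodine receptor of heart and brain, had 4.36, 4.87 and 5.56 FPKM and lay below Itpr1 in every library. Itpr2, the receptor known from astrocytes, was at 3.09 ± 0.246 FPKM and Ryr3, a ryanodine receptor found in hippocampus, at 1.55, 1.02 and 2.5 FPKM. Ryr1, the channel of skeletal muscle, was at 0.43, 0.89 and 0.55 FPKM and Itpr3, known from epithelia, at 0.18, 0.6 and 0.19 FPKM. IP3 receptors together made up 64.3% ± 4.94 of the summed FPKM of the 6 release channels and ryanodine receptors 35.7% ± 4.94.

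Itpr1 made up 47.2% ± 6.90 of release channel FPKM, and Ryr2 was 0.529 ± 0.125 times Itpr1. None of 3 tested channels was higher than Itpr1, where 22.8% of all genes were, and 1 was lower, where 15.9% of all genes were. That gene was Ryr3, at -2.001 log2 units (SE 0.239, adjusted p = 0.0157, limma). In the pooled limma fit the call was lost without library 2 (difference -1.65, adjusted p = 0.115). Itpr2 differed by -1.36 (SE 0.191, adjusted p = 0.130, limma) and was not called against the 2-fold null, except without library 1 in the pooled limma fit (-1.63, adjusted p = 0.0165). Ryr2, at -0.83, did not pass. In bulk tissue, fewer cells of a type and less RNA per cell cannot be told apart, so none of these levels is a level per neuron or per astrocyte.

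Among the genes of store-operated entry, Orai2 stood far above the sensors. Orai2, a channel subunit found in neurons (chr5:136147456-136170697), had 56.58, 49.31 and 54.75 FPKM. Orai3 had 11.25, 9.84 and 12.31 FPKM, and Orai1, the first identified channel subunit (chr5:123015074-123030452), had 6.43, 5.74 and 8.71 FPKM. The 3 channels kept this order in every library without overlap, and each was lowest in library 2. Stim1, the sensor that opens Orai channels, was at 17.0 ± 1.02 FPKM and Stim2, which responds to smaller drops in store calcium, at 15.1 ± 2.35 FPKM. Their ranges overlapped, and Stim1 was above Stim2 in libraries 2 and 3 and below it in library 1.

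Orai2 made up 74.8% ± 2.22 of Orai FPKM, 7.89 ± 1.39 times Orai1 and 4.83 ± 0.331 times Orai3. Against Orai1, 1 of 2 channels was higher, where 30.3% of all genes were higher and 10.0% lower. Orai2 was 2.79 log2 units above Orai1 (SE 0.160, adjusted p = 0.000420, limma), in 3 of 3 libraries, and Orai3, at 0.62, did not pass. Against Stim1, 1 of 4 genes was higher, where 17.4% of all genes were, and none was lower, where 36.4% of all genes were. Orai2 was 1.60 log2 units above Stim1 (SE 0.127, adjusted p = 0.00688, limma). Orai1 at -1.19, Orai3 at -0.57 and Stim2 at -0.17 were not called.

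The promoter windows of Orai2 and Orai1 are shown because these related channels differed most within their family, with that of Dgkz for the gene that led its own. They are from RefSeq for GRCm38.p6, printed in the direction of the gene, and the capitals mark GGGCGG or its reverse complement CCGCCC, the GC box. For Dgkz, the first start means the first of the 2 starts that have a window. It lies at chr2:91963563, inside the annotated gene, which reaches chr2:91976443 on this strand.
Orai2, chr5:136170607-136170906, minus strand: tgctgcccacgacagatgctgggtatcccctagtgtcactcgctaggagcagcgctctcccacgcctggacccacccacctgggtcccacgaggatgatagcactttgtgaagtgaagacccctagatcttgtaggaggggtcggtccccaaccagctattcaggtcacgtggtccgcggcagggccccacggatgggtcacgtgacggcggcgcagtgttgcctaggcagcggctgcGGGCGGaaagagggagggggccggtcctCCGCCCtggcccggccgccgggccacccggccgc
Orai1, chr5:123014824-123015123, plus strand: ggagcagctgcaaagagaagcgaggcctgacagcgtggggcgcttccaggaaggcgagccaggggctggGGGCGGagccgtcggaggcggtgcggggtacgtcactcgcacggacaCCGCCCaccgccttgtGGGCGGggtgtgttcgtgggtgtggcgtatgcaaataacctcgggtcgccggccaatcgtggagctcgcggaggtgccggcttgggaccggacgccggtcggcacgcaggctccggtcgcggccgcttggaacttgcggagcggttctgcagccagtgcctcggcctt
Dgkz, first of its starts, chr2:91963514-91963813, minus strand: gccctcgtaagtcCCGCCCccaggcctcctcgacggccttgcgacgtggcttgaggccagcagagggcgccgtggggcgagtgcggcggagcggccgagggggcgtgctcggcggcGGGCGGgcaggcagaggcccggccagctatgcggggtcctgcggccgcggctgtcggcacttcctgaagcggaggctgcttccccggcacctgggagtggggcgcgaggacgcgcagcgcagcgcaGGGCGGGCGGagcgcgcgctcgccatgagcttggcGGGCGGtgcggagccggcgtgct
All 3 windows hold the GC box. It was found on either strand in 43 of the 62 windows of members, which belong to 44 genes (69.4%), and in 35.7% of the 32851 windows of all genes. The letters TATAAA were in 3.23% of member windows and 13.6% of all windows, CCAAT in 27.4% and 37.4%, and CACGTG in 16.1% and 7.15%. Member windows held a median of 20.5 CpG dinucleotides, against 7 in all windows. The windows of all genes were not restricted to genes detected in these libraries. Ryr3, Itpr1, Prkce, Prkch, Atp2c2, Atp2a2, Atp2b3, Prkcz2 and Plcz1 had no window.

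Each type of calcium pump had 1 leading gene. Atp2a2, which encodes SERCA2 of the endoplasmic reticulum (chr5:122453513-122502225), had 94.82, 81.94 and 86.7 FPKM. Atp2b1, a widely expressed plasma membrane pump (chr10:98914630-99026143), had 113.14, 84.21 and 103.08 FPKM, and Atp2c1, the calcium and manganese pump of the Golgi (chr9:105411362-105521257), 78.14, 71.59 and 60.9 FPKM. Atp2b1 was above Atp2a2 and Atp2c1 below it in every library, although the ranges of Atp2b1 and Atp2a2 overlapped. The neuronal plasma membrane pumps Atp2b2 and Atp2b3 overlapped at 21.5 ± 3.33 and 16.8 ± 2.64 FPKM, and Atp2b4 was at 8.47 ± 1.17 FPKM. Atp2a3, a SERCA pump known from blood and endothelial cells, was at 1.3, 1.06 and 1.97 FPKM. Atp2a1, the pump of fast muscle, was at 0.72, 0.6 and 0.26 FPKM and Atp2c2, known from secretory epithelia, at 0.73, 0.64 and 0.34 FPKM, 5 to 8 fragments each.

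Atp2a2 made up 97.8% ± 0.277 of SERCA FPKM, Atp2c1 99.2% ± 0.203 of SPCA FPKM and Atp2b1 68.1% ± 1.11 of plasma membrane pump FPKM. The ratio of Atp2b1 to Atp2b2 varied little, with 4.67, 4.74 and 4.61 in libraries 1, 2 and 3, while the ratio of Atp2a2 to the low Atp2a3 was 64.8 ± 18.1. Against Atp2a2, none of 6 pumps was higher, where 3.63% of all genes were, and 4 were lower, where 79.7% of all genes were. Atp2a3 differed by -5.20 log2 units (SE 0.159, adjusted p = 1.18e-05, limma), Atp2b4 by -3.23, Atp2b3 by -2.33 and Atp2b2 by -1.99 (adjusted p = 0.000877, limma). Atp2b1 at 0.18 and Atp2c1 at -0.32 were not called. The 3 other plasma membrane pumps were all lower than Atp2b1, where 80.2% of all genes were lower and 2.92% higher. The differences from Atp2b1 were -2.17 for Atp2b2, -2.51 for Atp2b3 and -3.41 for Atp2b4, with adjusted p from 3.47e-05 to 0.000655 in limma.

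Set against the median tested gene of the same library, 8 of 44 members were more than 2-fold higher and 11 more than 2-fold lower, and 25 were not called. Over all genes 26.0% were called higher and 22.3% lower, so both counts were near the background. The median difference to the median gene was -0.01 log2 units over the members, as over all tested genes. Those higher were Prkcb at 3.67 log2 units (SE 0.116, adjusted p = 2.42e-05, limma), Dgkz at 3.38, Atp2b1 at 3.15, Atp2a2 at 2.97, Atp2c1 at 2.64, Prkce at 2.47, Prkcz at 2.45 and Orai2 at 2.26. Those lower were Plcg2 at -2.43, Plch1 at -2.34, Plce1 at -2.26, Prkch at -2.25, Atp2a3 at -2.23, Ryr3 at -2.11, Dgka at -1.88, Dgkh at -1.64, Dgki at -1.52, Itpr2 at -1.47 and Plcd1 at -1.32. The call of Plcd1 (adjusted p = 0.0238, limma) was lost without any 1 of the libraries, at adjusted p from 0.0524 to 0.110. By family, 3 of 8 kinases of the Prkc family were higher and 1 lower, 1 of 9 diacylglycerol kinases was higher and 3 lower, and of 11 phospholipase C genes none was higher and 4 were lower.

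Most members varied little between libraries. The coefficient of variation over 3 libraries had a median of 12.2% over the 44 tested members and 13.8% over all tested genes, and it ran from 4.01% for Prkch to 44.4% for Ryr3. It was under 20% for 37 of 44 members (84.1%) and for 67.6% of all genes. Among genes within 0.5 log2 units of its mean, the coefficient of variation of Dgkz (16.9%) was at percentile 92.5, that of Itpr1 (28.6%) at 87.7, that of Prkcb (14.0%) at 86.2 and that of Atp2b1 (14.7%) at 85.2. Other high members lay lower, among them Atp2a2 at percentile 41.2 and Orai2 at 35.2. Percentiles are descriptions of these libraries, with no test.

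Library 3 held the highest value of 19 of 44 members, library 1 of 17 and library 2 of 8, where 30.9%, 36.5% and 32.6% of all genes were highest in libraries 3, 1 and 2. The families did not follow 1 library. Of 8 coding kinases of the Prkc family 6 were highest in library 3, the exceptions being Prkci (library 1) and Prkch (library 2). All 4 plasma membrane pumps were highest in library 1. All 3 Orai genes were lowest in library 2, as were 3 of 4 plasma membrane pumps and 2 of 2 tested SERCA genes. So were 5 of 11 phospholipase C genes, 4 of 9 diacylglycerol kinases and 3 of 8 Prkc kinases, but 0 of 1 tested SPCA gene. The share of all genes lowest in library 2 is not given, so this is not shown to be particular to Orai. The counts for kinases and pumps were the same after each library was centred on its median gene. Each library was also rescaled to a sum of 1000000. This raised the median gene by 0.40, 0.26 and 0.60 log2 units in libraries 1, 2 and 3. On that scale 8 of 8 kinases were highest in library 3 and 2 of 4 plasma membrane pumps in library 1. The sums behind this scale include Bc1, listed at 124074 and 179412 FPKM in libraries 1 and 2 and at 0 in library 3. Because the median gene rose most in library 3, the rescaled counts are not shown to be particular to these families. The 5 choroid plexus markers were all lowest in library 1 and highest in library 3, and the summed markers of immature neurons were highest in library 1. Their part in these library differences was not tested.

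**Figure D4:**
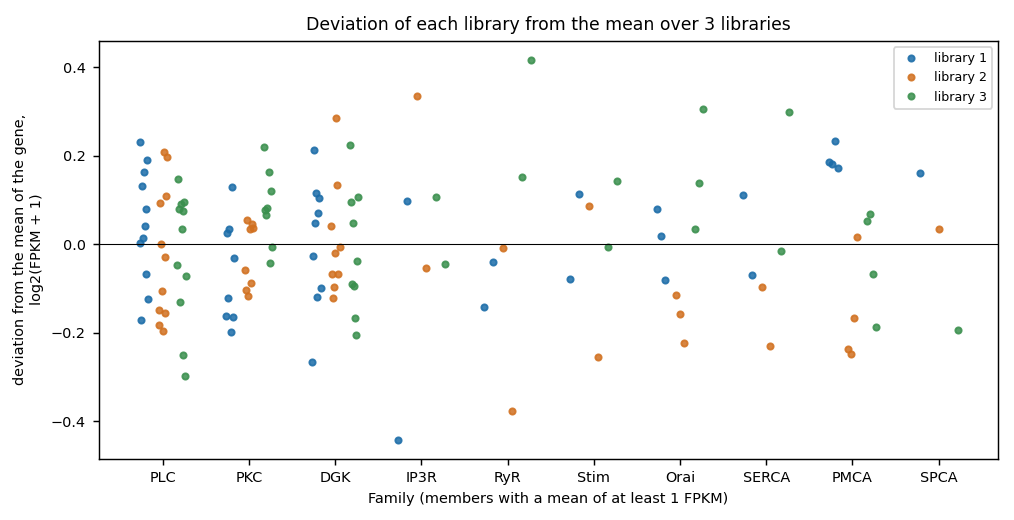
Each point is 1 library of 1 tested member, as the deviation from that gene's mean over 3 libraries in log2(FPKM + 1) units, by family. Kinases of the PKC family lie mostly above 0 in library 3, plasma membrane pumps (PMCA) above 0 in library 1, and Itpr1 gives the lowest point, in library 1.

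Genes around the pathway were taken from 12 lists of regulators, substrates and partners, and are given as counts against the median gene, beside the same 26.0% higher and 22.3% lower over all genes. Upstream, 3 of 22 tested Gq-coupled receptors were higher and 12 lower. The highest were the endothelin receptor Ednrb at 43.7 ± 1.98 FPKM, the glutamate receptor Grm5 at 40.2, 36.79 and 28.91 FPKM and the muscarinic receptor Chrm1 at 29.78, 31.74 and 34.1 FPKM. Both tested Gq alpha subunits were higher, Gna11 at 50.6 ± 0.971 FPKM and Gnaq at 27.3 ± 1.97 FPKM. Of 20 enzymes that transport and rebuild phosphoinositides, 8 were higher and 2 lower, led by the transfer protein Pitpna at 105 ± 8.06 FPKM. Of 5 catalytically inactive or related phospholipase genes (Plcl and Plcxd), none was higher and 2 were lower.

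Of 16 listed genes for inositol phosphate and phosphoinositide phosphatases and IP3 kinases, 3 were higher and 4 lower. Not all of them act on IP3 itself, so these are not counts of IP3 breakdown. The highest was Inpp5f at 106 ± 13.2 FPKM, and the IP3 kinase gene Itpka, known from dendritic spines, was at 73.83, 100.8 and 83.09 FPKM. Other targets and lipases of diacylglycerol gave 4 higher and 3 lower of 17, led by the Rac regulator Chn1 at 356 ± 14.2 FPKM. Substrates and anchors of protein kinase C gave 12 higher and 1 lower of 16, among them Nrgn at 1099 FPKM, Gap43 at 374 ± 25.7 FPKM and Marcksl1 at 344 ± 39.1 FPKM. Nrgn is also in the list of principal neuron markers.

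Around the stores, 11 of 19 regulators of release were higher and 1 lower, led by the channel-binding immunophilin Fkbp1a at 384 ± 14.1 FPKM. Buffers and chaperones of the lumen gave 9 higher and 1 lower of 13, with calreticulin (Calr) at 247 ± 24.0 FPKM, while the muscle buffer Casq1 was listed at 0, 0.32 and 0.74 FPKM. Regulators of store entry gave 3 higher and 3 lower of 10, led by Saraf, which slows entry, at 175 ± 5.03 FPKM. Partners and relatives of the pumps gave 5 higher and 3 lower of 10. Bsg and Nptn, which encode partner subunits of plasma membrane pumps, were at 571 ± 38.9 and 436 ± 95.1 FPKM, and phospholamban (Pln), the SERCA inhibitor of heart, was listed at 0 in all 3 libraries. Genes of mitochondrial calcium uptake gave 6 higher and none lower of 10, led by Smdt1 at 226.28, 297.54 and 323.07 FPKM.

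**Figure D5:**
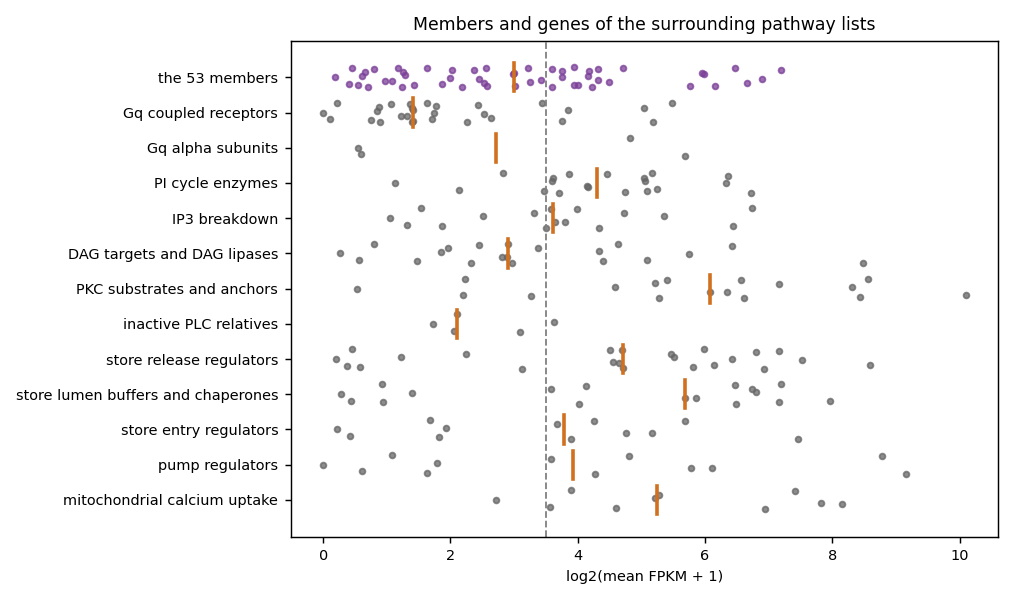
Each point is 1 gene as the mean of 3 libraries on a log2(FPKM + 1) axis, for the 53 members and the 12 lists of the surrounding pathway; the orange bar is the median of the list and the dashed line the median tested gene. Gq-coupled receptors lie mostly left of the dashed line, and substrates and anchors of PKC lie mostly right of it.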

How the data were processed

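Total RNA of hippocampus was sequenced in 3 libraries of a single group. A column of FPKM for each library was deposited by the authors in a single table, per the file headers, and the number in a sample's title gave its column. Per the submitters' processing notes, the aligner was Bowtie2 and the genome GRCm38 (mm10). Counting tool, annotation, versions and strand are not given in the sources used. The members and gene lists were chosen with earlier results of these data known.

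FPKM were used as deposited and are not counts, so no count model was run. Depth was estimated from single-transcript genes of 800 bases or more, where values worth at most 4 fragments were whole within 0.15 in 93.4%, 92.7% and 91.2% of cases. The worth of a fragment and a correction of the transcript length were fitted to these same values. Zeros may be failed estimates and are given as listed at 0.

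Differences of log2(FPKM + 1) were formed inside each library for genes with a mean of at least 1 FPKM; on this scale low genes differ less than in FPKM. They were taken to the median gene and to Plcb1, Prkca, Dgkz, Itpr1, Stim1, Orai1, Atp2a2 and Atp2b1, and tested across all genes with limma 3.58.1 in R 4.3.3 (treat, null of 1 log2 unit, Benjamini-Hochberg adjustment). The variant that moderates the gene and its reference gene separately was added after the data were seen. It treats both genes as independent and does not use the spread of their differences inside libraries. The pooled fit, not the separately moderated variant, was run on simulated data for 13336 genes against Prkca, 13136 of them placed at the level of Prkca. Of genes simulated 2 log2 units higher or lower than Prkca, 41 of 50 and 43 of 50 were called, at 1.5 units 1 of 50 and 0 of 50. Of the 13136 genes with no difference 0 were called, but they lie inside the null of 1 log2 unit, so hardly any call could arise. In the data 19.8% of genes were called higher and 31.2% lower than Prkca. The adjustment was therefore less strict than in the simulation, and the simulated rates do not carry over to the data. Transcript windows, overlaps and shared coding runs came from GENCODE M21 and coordinates and promoter windows from RefSeq GRCm38.p6, matched by symbol or gene ID for 53 of 53 members and, for promoters, 44. Of the 54 genes that the symbol rule found, 1 is not reported here. Tables and figures were made in Python 3.11.15 (matplotlib 3.10.9, pandas 2.3.3, numpy 2.4.6, scipy 1.17.1). Named genes were every member, the reference gene of each fit and, at most, the 3 highest genes of a list. Bc1, Casq1, Pln, Dsp, Skor2, Gabra6, the muscle markers at 0 and the genes that share windows or overlap with members were named after their values were seen. Alternatives were another pseudocount, no filter, a null of no difference, rescaled or centred libraries, each library left out, and shares weighted by transcript length or limited to members of at least 1 FPKM.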

Additional observations from a re-analysis of the deposited data

How the results depend on the processing

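No paired analysis was possible because the 3 libraries form 1 group. The separate moderation of gene and reference gene and the shares weighted by transcript length were chosen after seeing the data. Of 87 tested differences of members, 87 kept their direction and side of the threshold after rescaling to a sum of 1000000, 86 with a pseudocount of 0.1 (Dgkd against the median gene was then called, at 1.28, adjusted p = 0.0406, limma) and 58 with a null of no difference, where the other 29 were also called. Rescaling multiplies a library by 1 constant, which cancels in differences inside that library except through the pseudocount. The 87 of 87 were therefore nearly fixed in advance. Against the median gene, 20 members were called higher with no filter, and 18 higher and 20 lower with a null of no difference. With no filter, 59 of the 87 kept both, 12 were newly called and 7 lost their call; low genes enter, the median gene falls, and the sign turned for the other 9: Itpr1 (0.93), Atp2b4 (0.77), Plcd4 (0.74), Plcb3 (0.54), Dgke (0.52), Orai1 (0.51), Ryr2 (0.10), Dgkq (0.071) and Prkcq (0.058), none of them called in either fit. Itpr1 against the median gene ran from -0.28 to 0.12 when 1 library was left out, and was positive without library 1. Genes called lower than Prkca numbered 1 to 2 and lower than Itpr1 0 to 2 when 1 library was left out. Those lower than Itpr1 numbered 3 with no filter and 3 with a null of no difference. A null of no difference also gave 2 genes lower than Stim1 and 2 higher than Orai1. With FPKM times the longest annotated transcript, shares were 50.6% for Dgkz, 85.3% for Orai2, 30.6% for Plcb1, 66.0% for Atp2b1, 99.5% for Atp2c1 and 37.5% for Itpr1. Over members of at least 1 FPKM, Atp2a2 held 98.4% and Atp2c1 100%. After rescaling, the median SD of members was 0.26 on the log2(FPKM + 1) scale, and 9, 3 and 32 members were highest in libraries 1, 2 and 3. Rescaling, on sums that include Bc1, raised the median gene most in library 3, by 0.60 log2 units. The same values over all genes are not given, so these are not shown to be particular to the members. The counting tool and the transcript lengths behind FPKM are not given, so ratios between genes carry that uncertainty, and values resting on a few fragments (Prkcz2, Dgkeos, Atp2a1, Atp2c2, Plcz1) set no order.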
